A study of Mus musculus with 14 samples.

Results

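Agrin, the neuregulins and their receptors were read out in sorted mouse spinal neurons and in progenitors made from embryonic stem cells. The 8 genes were Agrn, Nrg1, Nrg2, Nrg3, Lrp4, Erbb2, Erbb3 and Erbb4, picked by name from a table of 23523 gene entries. They had 11 of the 31702 entries of the matching transcript table. The study asks what the loss of the microRNA miR-218, which motoneurons make, does to these cells. Of 14 labelled samples 13 had a column in the tables (floor plate cells were not analysed here). Wild-type (WT) motoneurons gave 6 libraries, sorted as GFP-positive cells from spinal cords at stage E12.5 with the reporter Hb9::gfp, in which GFP is driven by the promoter of Hb9 (Mnx1). Motoneurons labelled 218DKO (DKO), sorted with the same reporter at the same stage, gave 2 libraries. Interneurons came from wild-type embryos of stage E12.5 as tdTomato-positive cells carrying Rosa26:LSL:tdTomato and a Cre, with 1 library each of V1 (En1:cre), V2a and V3 (Sim1:cre). A Cre reporter of this kind also marks cells whose precursors used the driver. Mouse embryonic stem (mES) cells differentiated for 4 days with retinoic acid and a sonic hedgehog agonist gave 1 library of tdTomato-positive motoneuron progenitors (pMN, Olig2:cre;Rosa26:LSL:tdTomato) and 1 of unsorted neural progenitors without a reporter (NP). No muscle was profiled, so the receiving side of the signal was not measured. Nothing in the labels ties replicates to separate animals, so each p-value measures the spread among these samples, which may be technical.

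Agrin is a large proteoglycan that motor axons release at the neuromuscular junction. It binds LRP4 on the muscle fibre, which activates the kinase MuSK and gathers acetylcholine receptors under the nerve ending. Neuregulins are ligands with an EGF-like domain, made as membrane precursors that proteases shed, and they act through the ErbB kinases ERBB3 and ERBB4, which pair with ERBB2. Neuregulin 1 on axons is best known for its control of Schwann cells, which carry ERBB2 and ERBB3, and neuregulins also reach muscle and spindles. Agrin from neurons differs from agrin of other cells by small alternative exons at a place called the z site, which give it its strong action on receptors.

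The sequence that the knockout removes is shown with the places in the 3′ untranslated regions (UTRs) of the 8 genes where it could pair by its seed. Capitals mark the seed (bases 2 to 8) in miR-218-5p, and in the UTR windows the 7 letters of a match of either kind defined below. The mature miRNA is the same from both of its genes, at chr5:48223966-48223986 and chr11:35616840-35616860 on the plus strand (RefSeq, GRCm38.p6). A match is AAGCACA, complementary to the seed, or AGCACAA, complementary to bases 2 to 7 and followed by A. The 2 overlap in AAGCACAA. Only the sense strand of the UTR was searched, in the GENCODE M21 models (GRCm38) matched to the deposited transcripts, and a match is a description of letters and was not measured as a site.
miR-218-5p: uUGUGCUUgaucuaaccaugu
Nrg3, chr14:38369911-38369939, minus strand: ctgtaatttgaAAGCACAgaacctcagag
Lrp4, chr2:91513220-91513248, plus strand: catagaaaccgAAGCACAggagagattgg
Erbb3, chr10:128568373-128568401, minus strand: gagggtctttgAGCACAAgtactatgaga
Erbb4, chr1:68037190-68037218, minus strand: tccttccctaaAAGCACAggatttgcagt
Erbb4, chr1:68034406-68034434, minus strand: aaataaaacacAGCACAAaaaacttattt

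Thus 4 of the 8 genes held at least 1 match. No match was found in the models of Agrn, Nrg1, Nrg2 and Erbb2, whose 3′ UTRs were 718, 272, 262 and 1048 bases long. The match in Nrg3 lay in a 3′ UTR of 1581 bases (model Nrg3-201), while the other matched Nrg3 model had a UTR of 56 bases without it. The 3′ UTR of Erbb4 was the longest at 7855 bases, and those of Lrp4 and Erbb3 had 2018 and 1845 bases. The Lrp4 model was matched through NM_172668. The other listed Lrp4 transcript, NM_001145857, had no matched model and was not searched. Among 14832 tested genes with an annotated 3′ UTR, 19.9% held a match of either kind.

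One agrin exon is shown because it decides what the deposited agrin value can say. The annotation holds an exon of 24 bases, 8 codons, at chr4:156168546-156168569 on the minus strand in the transcript Agrn-203, and a second small exon of 33 bases, 11 codons, at chr4:156167777-156167809. Exons of 8 and 11 codons at the z site are those that give agrin its neural form. The 24-base exon, in capitals throughout, is the following.
Agrn-203 small exon: CGAGCTGACCAATGAGATCCCAGC

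Neither exon is in the model that the table uses for Agrn (NM_021604, matched to Agrn-206). Of 7 annotated Agrn transcripts, 4 of them coding, 1 held both exons. The deposited value is therefore a level of agrin RNA as a whole and does not tell neural agrin from the other forms.

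The labels and libraries were checked first. miR-218 has no entry in the tables, and its host genes Slit2 and Slit3 both read higher in the DKO libraries (Slit3 3845 and 3571, against 571 to 694 in WT), which does not measure the miRNA itself. Motoneuron markers (7 of 7) were higher in WT motoneurons than in interneurons in the test described below, as were 17.7% of all genes. Their summed signal was 13649 to 17253 in WT, 10084 and 9472 in DKO, 51.6 in V1, 1638 in V2a and 294 in V3. In DKO against WT, 0 of the 7 were called higher, 2 lower (Prph and Slc18a3), and 5 did not pass. Over all genes tested, 3.22% were called higher and 4.77% lower. Prph read 448 and 459 in DKO against 4826 to 7874 in WT, and the median difference of the 7 was 0.14 on the log2(signal + 1) scale. Of the defining genes of the interneuron libraries, En1 read 850.7 in V1 and Sim1 read 807.5 in V3. The V2a library also held Chat (308.8) and Slc18a3 (1202), with Mnx1 at 7.46. The V2a and V3 libraries held more signal of mesenchyme, blood and endothelium genes than V1 did. The mesenchyme sum was 858 in V3 and 211 in V2a against 15.8 in V1, the blood sum 973 and 13828 against 216, and the endothelium sum 147 and 185 against 31.9. Not every list ran so: in V2a the floor plate sum was 321 and the Schwann and neural crest sum 3308, against 361 and 3527 in V1. In V3, Pdgfra read 73.5 and Myog, a muscle gene, 49.0, against 2.6 and 0 in V1. Of the same 2 lists, oligodendrocyte precursor and muscle, Olig1, Olig2, Acta1 and Tnnc2 were lower in V3 than in V1. The sum of 5 pluripotency genes was 10635 in pMN and 7980 in NP, against 46.2 to 72.8 in WT. It was 80.7 and 91.6 in DKO and 440, 226 and 24.7 in V1, V2a and V3. Pou5f1 read 731 in pMN and 956 in NP, and the progenitor gene Olig2 1495 and 191. The part of undifferentiated cells in the pMN and NP values was not tested. The WT libraries were uneven too. Their microglia sum was 4.67 to 153 and their blood sum 7.20 to 1515, both highest in replicate 1. Their mesenchyme sum was 6.99 to 199 and their floor plate sum 274 to 1154, both highest in replicate 6. The part of such cells in the WT values was not tested. Approximate depth, worked out from the steps of the low values, was lowest in DKO replicate 1 (6.77 M reads) and highest in WT replicate 1 (26.1 M).

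Values are a deposited signal per gene, scaled for length and between libraries, so levels can be set side by side between genes. In WT motoneurons the order of the mean signal was Agrn, Nrg1, Nrg3, Nrg2, Erbb4, Lrp4, Erbb2 and Erbb3. The lowest Agrn value (1500) and the highest Nrg1 value (1501) just met, in different libraries, and both genes lay clear of the other 6. Nrg3 lay clear of Nrg2, and Nrg2 (18.3 to 46.1) overlapped Erbb4 (17.7 to 36.6). Lrp4, Erbb2 and Erbb3 overlapped in neighbouring pairs. The ligands were thus at the top and the receptors at the bottom of the order.

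**Figure D1:**
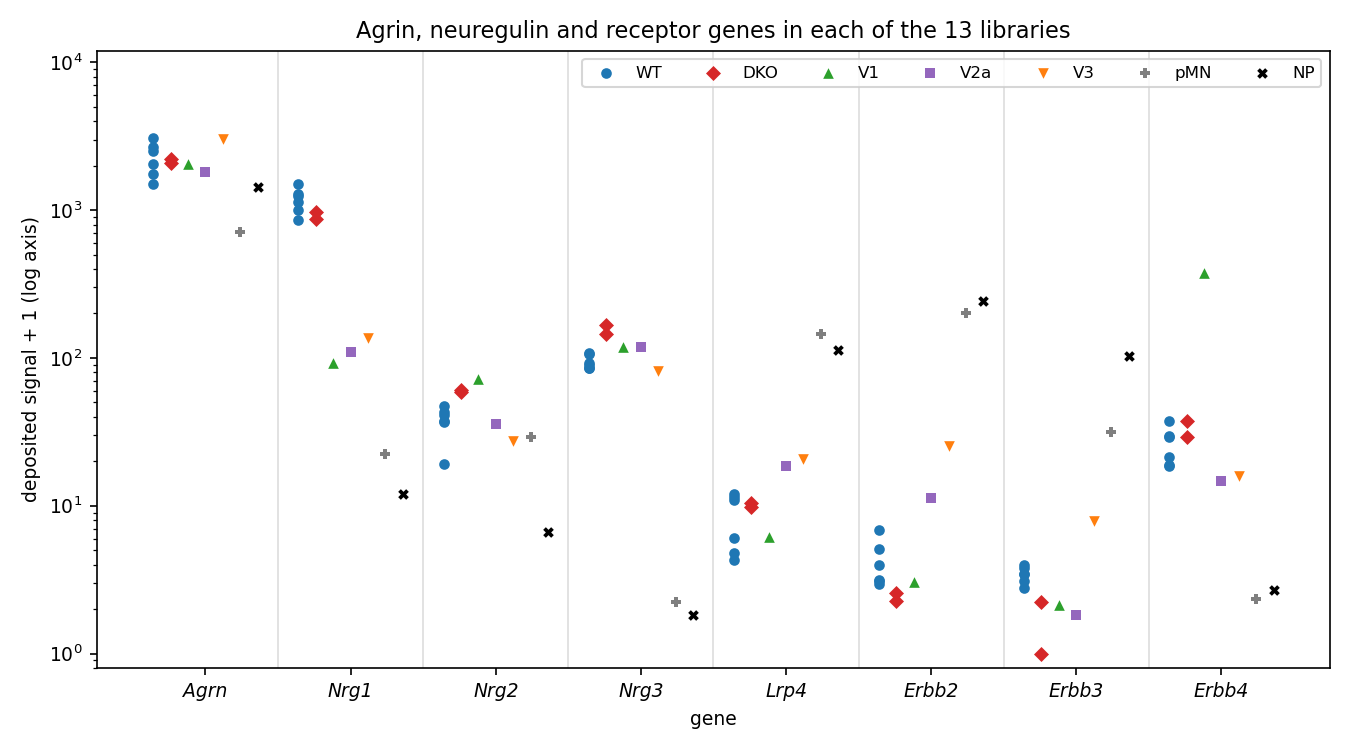
Deposited signal plus 1, on a log axis, for each of the 8 genes (x axis) in each library: 6 WT and 2 DKO motoneuron libraries, V1, V2a and V3 interneurons, and the pMN and NP libraries from mES cells. Each point is 1 library. Nrg1 is high in motoneurons (WT 862 to 1501), Erbb4 in V1 (375), and Lrp4, Erbb2 and Erbb3 in the pMN and NP libraries.

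Agrn, encoding agrin, was the highest of the 8 genes in every library, with overlapping levels in motoneurons and interneurons. In WT its signal had a lowest value of 1500, a median of 2288 and a highest of 3094. The DKO libraries read 2224 and 2083, and V1, V2a and V3 read 2054, 1808 and 3034. All of these DKO and interneuron values lay inside the WT range. The difference between DKO and WT was −0.03 on the log2(signal + 1) scale (SE 0.24, 95% interval −0.55 to 0.49, adjusted p = 0.952), and that between WT and interneurons −0.03 (SE 0.23, 95% interval −0.55 to 0.49, adjusted p = 0.934). These tests used limma with a trended prior over all genes, were two-sided, and called a gene at a Benjamini-Hochberg adjusted p under 0.05. Neither test passed, and the intervals leave room for changes of about 0.5 log2 units in either direction. The pMN library read 714 and the NP library 1437, so agrin RNA was present in both stem cell libraries. NP stood 2.01-fold above pMN, a step of at least 2-fold upward (signal + 1) that 15.2% of 17188 genes also showed. There is 1 library of each and the difference has no replicate check.

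Nrg1 was the ligand that set motoneurons apart. Its WT signal had a lowest value of 862, a median of 1193 and a highest of 1501, while V1 read 91.2, V2a 109.5 and V3 135.1. No interneuron library came within the WT range. The 3 interneuron libraries are different cell types tested as a class, so their spread includes differences between types. They also differ from the WT motoneurons in reporter. The mean Nrg1 signal was 1173 ± 224 (SD, n = 6) in WT and 112 ± 22.0 (SD, n = 3) in interneurons, 10.5-fold apart, with a difference of 3.37 on the log2(signal + 1) scale (SE 0.18, 95% interval 2.99 to 3.76, limma adjusted p = 9.5e-07). It was called in 20 of 20 alternative analyses, at 3.16 to 3.59. These include a fit of the transcript table, where Nrg1 has the same values and only the prior and the adjustment differ. It was the only one of the 8 genes called in this comparison, where 32.9% of 16486 genes were called, 17.7% as higher in WT. In bulk libraries a smaller share of expressing cells and less RNA per cell cannot be told apart. The interneuron levels were 7.78% (V1), 9.33% (V2a) and 11.5% (V3) of the WT mean. The 7 motoneuron markers stood at 0.0247% (Mnx1) to 2.12% (Chat) of their WT means in V1 and at 0.101% (Mnx1) to 4.23% (Slc18a3) in V3. In V2a, Chat and Slc18a3 stood at 77.6% and 54.7% and the other 5 at 0.238% to 1.81%. Nrg1 was thus relatively higher than all 7 markers in V1 and V3 and than 5 of 7 in V2a. pMN read 21.5 and NP 11.1.

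In the DKO motoneurons Nrg1 read 972 and 876, both inside the WT range. The difference from WT was −0.32 (SE 0.18, 95% interval −0.72 to 0.07, limma adjusted p = 0.273) and did not pass. It passed when DKO was set against WT replicates 2, 3 and 4 alone (−0.54, adjusted p = 0.0283), and not against replicates 1, 5 and 6 alone (−0.11, adjusted p = 0.572). Among the 3 neuregulins, Nrg1 took 87.0% to 92.4% of the summed signal in WT and 79.6% and 82.7% in DKO. In the interneurons it took 32.5% (V1), 41.9% (V2a) and 55.8% (V3), where Nrg3 held 42.1%, 44.8% and 33.2%.

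Nrg3, a neuregulin of neurons that binds ERBB4, was the 1 gene of the 8 called in DKO against WT. Its WT signal had a lowest value of 84.1, a median of 90.1 and a highest of 106.4, and the DKO libraries read 144.1 and 166.5. Both DKO libraries lay above all 6 WT libraries. The means were 155 ± 15.9 (SD, n = 2) and 93.3 ± 9.93 (SD, n = 6), 1.66-fold apart, with a difference of 0.73 (SE 0.15, 95% interval 0.39 to 1.07, limma adjusted p = 0.0181). Of 16260 genes tested, 7.99% were called, 3.22% as higher in DKO. Without DKO replicate 1 the difference was 0.84 and no longer passed (adjusted p = 0.119), and without DKO replicate 2 it was 0.63 (adjusted p = 0.216). In these fits the lone DKO library is assumed to vary like the WT libraries. The call held against each set of 3 WT libraries (adjusted p = 0.0322 against replicates 2, 3 and 4, and 0.0194 against replicates 1, 5 and 6). The V1, V2a and V3 libraries read 118.1, 117.1 and 80.4, around the WT values, and the difference between WT and interneurons was −0.16 (adjusted p = 0.479). Nrg3 was near nothing in the progenitors, at 1.22 in pMN and 0.812 in NP, or about 6 and 4 reads.

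Nrg2, the third neuregulin, was lower and less even. Its WT signal had a lowest value of 18.3, a median of 38.4 and a highest of 46.1, and the DKO libraries read 60.0 and 57.8. The DKO values again lay above all WT values. The difference of 0.73 had a wider error than that of Nrg3 (SE 0.31, 95% interval 0.05 to 1.41, limma adjusted p = 0.164) and did not pass. Against WT replicates 1, 5 and 6 alone, without the lowest library, it was 0.45. V1 read 71.0, V2a 34.9 and V3 26.4, and the difference between WT and these did not pass (−0.19, adjusted p = 0.690). In the progenitors pMN read 28.2 and NP 5.69. This was the only one of the 8 genes that was at least 2-fold lower in NP than in pMN (signal + 1), as 8.01% of genes were.

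The transcript table splits only Nrg3 and Lrp4, with 3 and 2 entries, and gives 1 entry to each of the other 6. The split of Nrg3 was uneven from library to library. NM_001190187 was listed at 0 in WT replicates 3 and 5 and between 28.99 and 46.3 in the other WT libraries. NM_001190188 was listed at 0 in WT replicate 1. NM_001190187 and NM_008734 match the same annotated model, Nrg3-201, so that the way signal was divided between them carries little information. None of the 3 transcripts passed in DKO against WT, with adjusted p of 0.555, 0.554 and 0.687 (limma over 21820 transcripts, 3.19% called). NM_008734 passed in WT against interneurons (3.69, SE 0.93, adjusted p = 0.0225, with 20% of 22164 transcripts called), with signals of 14.5 to 67.6 in WT, 15.5 in V1 and 0 in V2a and V3. The WT and V1 values overlapped, and the gene sum did not pass.

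**Figure D2:**
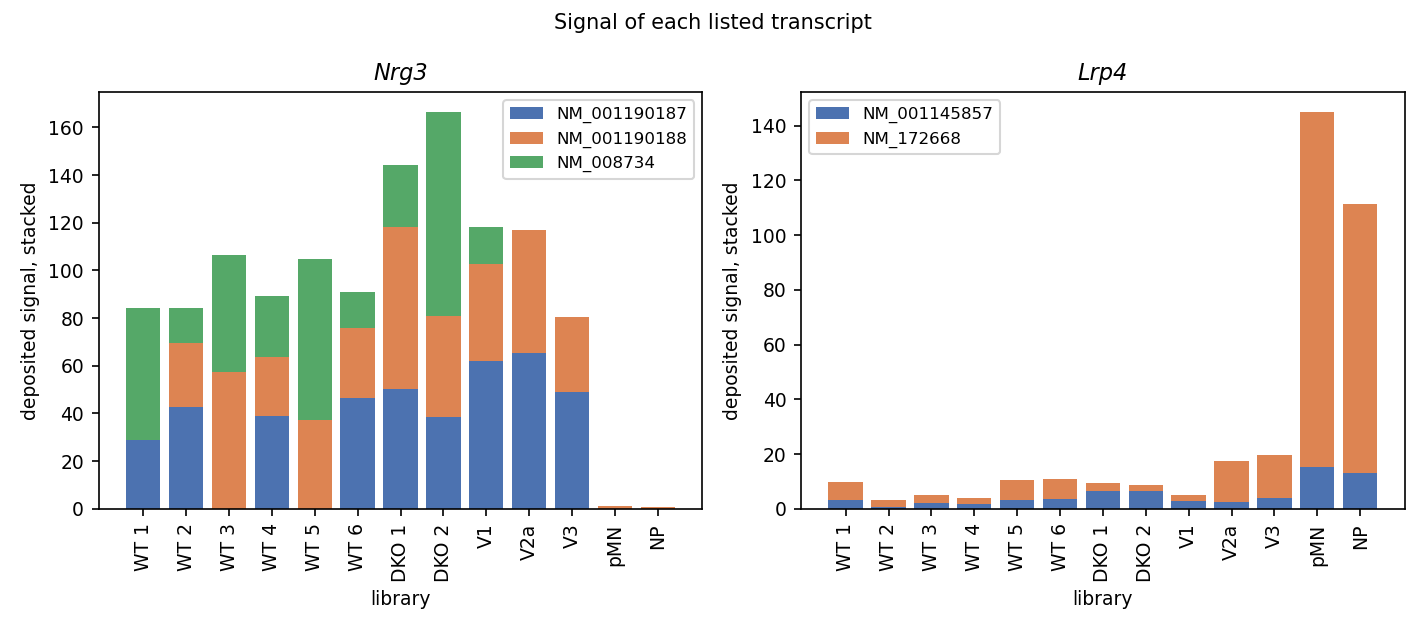
Stacked signal of each listed transcript of Nrg3 (left, 3 transcripts) and Lrp4 (right, 2 transcripts) in the 13 libraries. The shares of the Nrg3 transcripts alternate between WT libraries while their sum stays between 84.1 and 106.4, and Lrp4 is highest in pMN and NP.

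Lrp4, the agrin receptor of muscle, was low in neurons and high in both stem cell libraries. Its WT signal had a lowest value of 3.28, a median of 7.47 and a highest of 10.96, and the DKO libraries read 9.36 and 8.88. V1 read 5.17, V2a 17.5 and V3 19.8. The pMN and NP libraries read 145.0 and 111.4, a mean 17.7-fold above the WT mean. Lrp4 was 1 of 2 genes of the set, with Erbb2, that both stem cell libraries showed at least 4-fold above every neuron library (signal + 1), as 7.05% of 17188 genes did. DKO and WT differed by 0.42 (SE 0.47, 95% interval −0.61 to 1.46, limma adjusted p = 0.596), and WT and interneurons by −0.82 (SE 0.50, adjusted p = 0.219), and neither passed. The 2 Lrp4 transcripts changed rank between genotypes: NM_172668 held 54.8% to 80.2% of the signal in WT and 31.3% and 26.3% in DKO. NM_001145857 read 6.44 and 6.54 in DKO against 0.651 to 3.53 in WT, without overlap, as for 25.2% of transcripts. Its difference of 1.22 (SE 0.51) did not pass (adjusted p = 0.234), nor did that of NM_172668 (−0.56, adjusted p = 0.606). In WT replicate 4 the whole gene rested on about 21 reads, and in DKO replicate 1 on about 28.

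Erbb2, the ErbB kinase without a ligand of its own, was also highest in the stem cell libraries. It read 201 in pMN and 243 in NP, and in WT had a lowest value of 1.95, a median of 2.54 and a highest of 5.81. The DKO libraries read 1.57 and 1.25, below every WT library. The difference of −0.73 (SE 0.45, 95% interval −1.72 to 0.27) did not pass (limma adjusted p = 0.327). These DKO values stood for about 3 and 5 reads. V1 read 2.03, V2a 10.2 and V3 24.4. WT differed from the interneurons by −1.26 (SE 0.59, adjusted p = 0.118), and without V1 by −2.09 (adjusted p = 0.0080). Of the 9 progenitor markers, Sox2, Nes, Hes5, Hes1, Fabp7 and Vim ran in the same order as Erbb2 over V1, V2a and V3 (Sox2 at 47.8, 157.0 and 277.3), whereas Pax6, Slc1a3 and Olig2 were highest in V1. The summed signal of the 9 was 1516 in V1, 3545 in V2a, 5018 in V3 and 4570 to 5612 in WT, where Vim takes most of it. The part of these cells in the Erbb2 values was not tested. Erbb2 shares 9 of the 5012 exon bases of its model with Mien1 on the other strand, and the kit does not mark strand.

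Erbb3, the neuregulin receptor of Schwann cells, was close to the limit of detection in neurons. Its WT signal had a lowest value of 1.77, a median of 2.43 and a highest of 2.996, about 6 to 25 reads. DKO replicate 1 had 0, where 3 reads would give 1.31, and DKO replicate 2 had 1.24, about 6 reads. The groups did not overlap, and the difference of −1.18 (SE 0.45, 95% interval −2.17 to −0.19, limma adjusted p = 0.128) did not pass. V1 read 1.12, V2a 0.811 and V3 6.87, and WT against interneurons differed by 0.12 (adjusted p = 0.853). Of the Schwann cell markers, Sox10 read 0 to 4.9 in WT, and Cdh19 was listed at 0 in all 6 WT and both DKO libraries. The 9-gene Schwann and neural crest list summed to 4907 to 6878 in WT and 3694 and 3219 in DKO, most of it Ngfr, which the neurons express. pMN read 30.3 and NP 102.9, so Erbb3 was 3.39-fold higher in the NP library.

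Erbb4, the receptor that binds neuregulins and signals by itself, was highest in the V1 library. V1 read 374.6, V2a 13.8 and V3 14.9. Only 1.01% of 17188 genes were at least 4-fold higher in V1 than in both other interneuron libraries (signal + 1), and the fold here was 23.7 over the higher of them. None of the 8 met the same rule for V2a or V3, which 0.518% and 1.04% of genes did. With 1 library a type this has no replicate check. In WT its signal had a lowest value of 17.7, a median of 24.4 and a highest of 36.6, or 4.72% to 9.77% of the V1 level, and the DKO libraries read 28.2 and 36.7. The groups overlapped and the difference was 0.40 (SE 0.31, 95% interval −0.28 to 1.08, limma adjusted p = 0.424). WT and the interneuron class differed by −0.83 (SE 0.85, adjusted p = 0.469), with the value carried by V1: without that library the difference was 0.71 (adjusted p = 0.121). Signal of V1 genes was present in the WT libraries, at 0.321% to 4.80% of the V1 level for En1, 0.507% to 3.56% for Gad1 and 0.787% to 6.41% for Gad2. The sum of the 5 V1 markers was 136 to 427 in WT, 445 and 437 in DKO and 5707 in V1. Its part in the Erbb4 values was not tested. In the progenitors Erbb4 read 1.33 (pMN) and 1.70 (NP).

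Counted over the set, 1 of the 8 genes was higher (Nrg3) and 0 lower in DKO, where 3.22% of all genes were higher and 4.77% lower. The median difference was 0.19 against 0.00 over all genes tested. Between DKO and WT, 4 of 8 (Nrg2, Nrg3, Erbb2 and Erbb3) did not overlap between the groups, where 30.7% of all genes did not. No gene of the set was called lower, and 3 of 8 had an unadjusted p under 0.05 (Nrg2, Nrg3 and Erbb3), as 26.4% of all genes had. In WT against interneurons 1 was higher (Nrg1) and 0 lower, where 17.7% of all genes were higher and 15.2% lower. The median was −0.18 against −0.04. Of the 4 genes with a seed match, 1 (Nrg3) was called higher, where 294 of 2952 genes with a match were called higher and 78 lower. Among 11880 genes without a match, 181 were called higher and 681 lower. The differences of Lrp4, Erbb4 and Erbb3 did not pass. Both comparisons share the WT libraries and are not independent of each other. All 8 genes passed the filter of a mean signal of at least 1 in both.

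**Figure D3:**
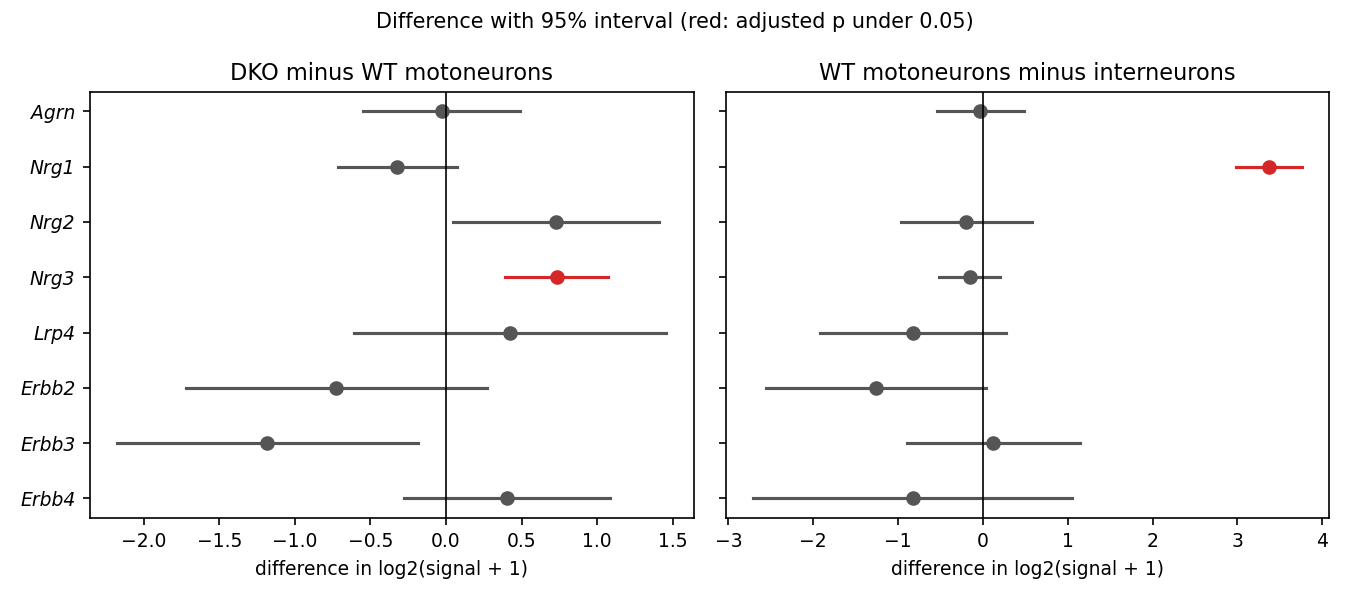
Difference in log2(signal + 1) for the 8 genes with its 95% interval, for DKO minus WT motoneurons (left) and WT motoneurons minus interneurons (right, on another scale). Red marks adjusted p under 0.05: Nrg3 at 0.73 on the left and Nrg1 at 3.37 on the right, while every other interval belongs to a difference that did not pass.

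Between the stem cell libraries and the neurons, the members of the set differed in direction. The ligands Nrg1 and Nrg3 and the receptor Erbb4 were at least 4-fold higher in every neuron library than in both stem cell libraries (signal + 1), as 6.95% of 17188 genes were, and the receptors Lrp4 and Erbb2 showed the opposite, as 7.05% did. Erbb3 was lower in all neuron libraries too, from 0 to 6.87 against 30.3 and 102.9, with V3 just short of the 4-fold step. The ligands Agrn and Nrg2 met neither rule. The stem cell libraries differ from the others in source, age and culture, and these cannot be told apart from cell stage. Within the ErbB family Erbb2 held 86.4% of the summed signal in pMN and 69.9% in NP. Erbb4 held 76.7% to 84.3% in WT, 94.7% and 93.6% in DKO and 99.2% in V1.

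The 6 WT libraries fall into 2 sets of 3 by the signal of Rn45s, a ribosomal RNA gene, at 10197 to 27943 in replicates 2, 3 and 4 and 644 to 4275 in replicates 1, 5 and 6. The labels give no reason for this, and the depth differed too, at 10.97 to 18.1 M reads in the first and 21.98 to 26.1 M in the second. Of the 8 genes 7 did not overlap between these sets, as 29.4% of 16180 genes did not. Agrn averaged 1767 in replicates 2, 3 and 4 and 2763 in replicates 1, 5 and 6, a ratio of 1.56. Lrp4 (2.57-fold), Erbb2 (2.08-fold), Erbb4 (1.68-fold), Nrg2 (1.42-fold) and Erbb3 (1.31-fold) were likewise higher in replicates 1, 5 and 6. Nrg1 went the other way, at 1344 in replicates 2, 3 and 4 against 1003. Nrg3 was at 93.3 in both sets. Both DKO libraries had Rn45s within the range of replicates 1, 5 and 6 (1647 and 1112), and a depth of 6.77 and 14.1 M reads, below that of replicates 1, 5 and 6. What sets these libraries apart was not tested. Set against replicates 2, 3 and 4 and then against replicates 1, 5 and 6, the DKO difference was 0.30 and −0.36 for Agrn, 1.02 and −0.17 for Lrp4, and 0.76 and 0.050 for Erbb4. None of these passed. Nrg3 kept its difference, at 0.73 against both, and the sheddase gene Adam19 was lower by −1.06 and −0.91, passing against both (limma adjusted p = 0.0039 and 0.0135).

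The partners of both pathways were read from 5 lists of genes, and values of differences are on the log2(signal + 1) scale. Of 23 genes of the agrin pathway and the postsynaptic apparatus, 17 were tested in DKO against WT, with 0 higher and 1 lower and a median of 0.12, where 4.77% of all genes were lower. The 1 was Dag1, dystroglycan, which also binds agrin, at 301 and 304 in DKO against 374 to 515 in WT (−0.50, limma adjusted p = 0.0457), a call kept in 10 of 19 alternatives and lost without either DKO library (adjusted p = 0.275 and 0.258). The kinase gene Musk was at 0 to 4.8, highest in V3, which also held Myog, and the scaffold gene Rapsn at 0 to 2.4 in all neuron libraries. Dok7, an activator of MuSK, was at 9.4 to 26.4 in the neurons and at 0.7 and 3.6 in pMN and NP. Prss12, encoding neurotrypsin, which cleaves agrin, read 17.8 to 58.0 in WT, 40.3 in V1, 5.4 in V2a and 14.1 in V3. Its differences were 1.34 for WT against interneurons (adjusted p = 0.0756) and 0.56 for DKO against WT (adjusted p = 0.370). In WT against interneurons 18 of the list were tested, with 5 higher and 1 lower and a median of 0.08, where 17.7% of all genes were higher and 15.2% lower. These were Mesdc2, Dnaja3, Dag1, Crk and Rac1, each by 0.39 to 0.42, and Crkl (−0.32). Rac1 passed in 8 of 19 alternatives, Dag1 in 12, Crkl in 13 and the other 3 in 18.

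Of the enzymes that process neuregulin, all 11 were tested. In DKO 0 were higher and 3 lower, with a median of −0.33, where 3.22% of all genes were higher and 4.77% lower. Adam19, a metalloprotease that can shed neuregulin, read 398 and 430 in DKO and 629 to 915 in WT, with no overlap. Its means were 414 ± 22.5 (SD, n = 2) and 825 ± 103 (SD, n = 6), a difference of −0.98 (SE 0.14, limma adjusted p = 0.00335), which passed in 17 of 19 alternatives and not without DKO replicate 1 (−0.93, adjusted p = 0.0761). Furin, a convertase of precursor proteins, was lower by −0.63 (adjusted p = 0.0405) and Bace2 by −1.43 (adjusted p = 0.0449), from a WT mean of 5.82. Furin passed in 8 of 19 alternatives and Bace2 in 5 of 18. Without DKO replicate 1 their adjusted p was 0.223 and 0.146, and without DKO replicate 2 it was 0.272 and 0.324. Bace1, the secretase that cuts neuregulin 1, was even, at 667 and 691 in DKO, 617 to 807 in WT and 647 to 705 in interneurons. Adam17, another sheddase, read 56.9 and 62.3 in DKO and 64.7 to 110.8 in WT (−0.56, adjusted p = 0.118). Between WT and interneurons, 3 of the 11 were higher and 0 lower, with a median of 0.13. Over all genes, 17.7% were higher and 15.2% lower. Adam19 was higher at 1.32 (SE 0.21, adjusted p = 0.00105) and Bace2 at 1.98 (adjusted p = 0.00103), both in all alternatives, and Psen2, a subunit of gamma-secretase, at 0.58 (adjusted p = 0.0473) in 6 of 19.

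**Figure D4:**
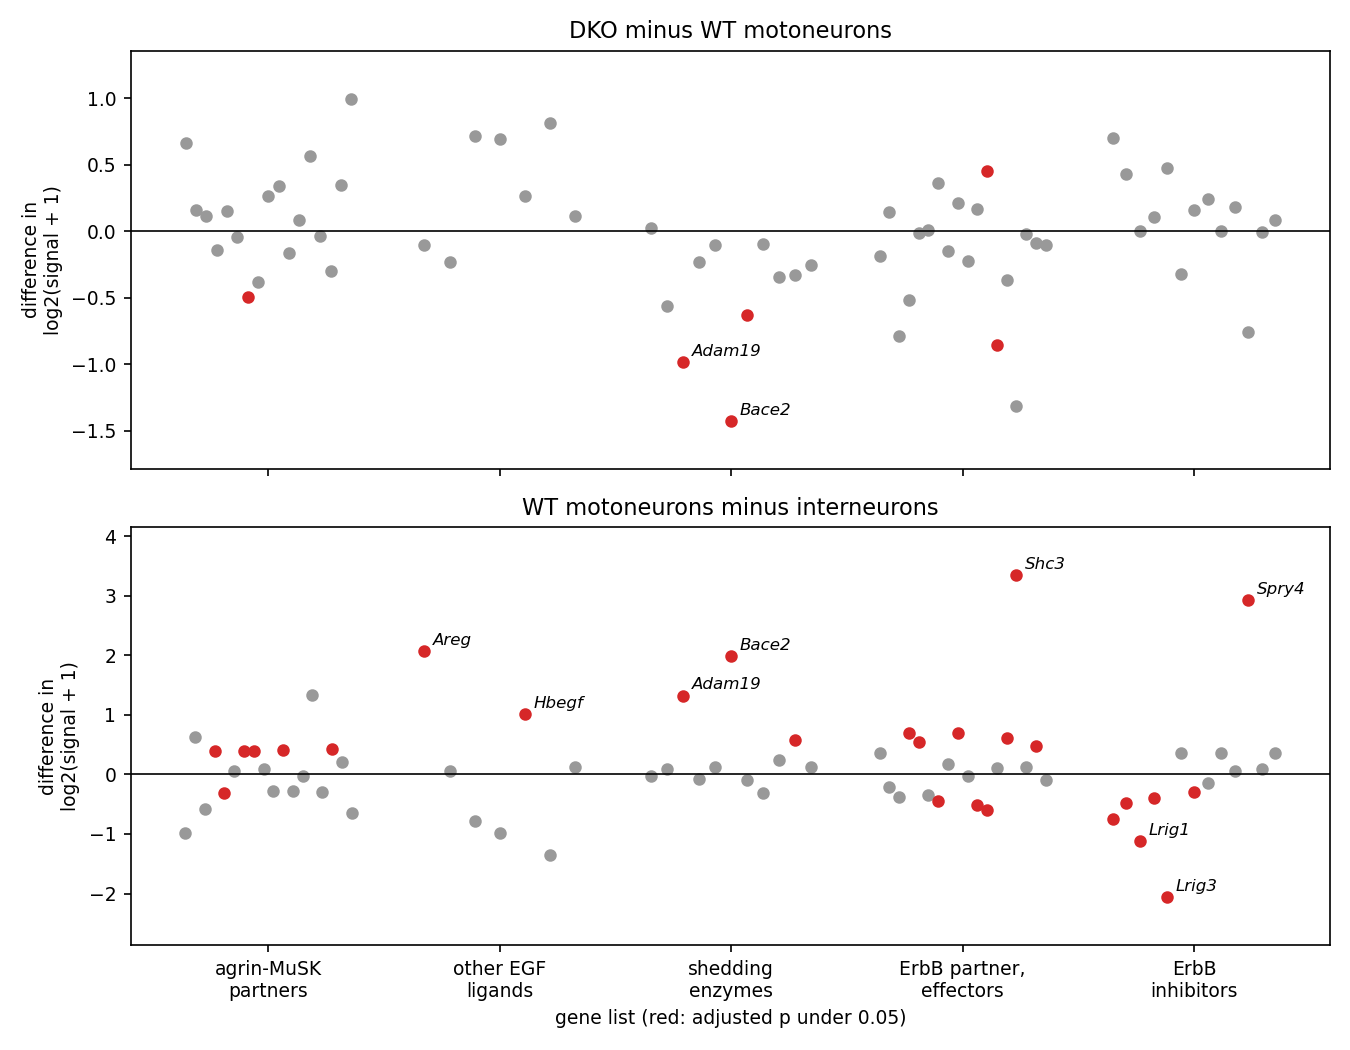
Difference in log2(signal + 1) of each tested gene in the 5 lists of partner genes, for DKO minus WT motoneurons (top) and WT motoneurons minus interneurons (bottom). Each point is 1 gene, in alphabetical order within its list, red where adjusted p was under 0.05. In the top panel the shedding enzymes have 3 red points, all below 0, with Adam19 at −0.98, and in the bottom panel Shc3 (3.34) and Spry4 (2.93) stand highest.

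Of the other EGF-family ligands 7 of 8 were tested. In DKO 0 were higher and 0 lower, with a median of 0.26, where 3.22% of all genes were higher and 4.77% lower. Against interneurons, 2 were higher in WT and 0 lower, with a median of 0.05, where 17.7% of all genes were higher and 15.2% lower. Hbegf, heparin-binding EGF, read 82.3 to 141.1 in WT and 96.0, 37.5 and 45.5 in V1, V2a and V3 (1.01, limma adjusted p = 0.0185), so V1 lay within the WT range, and the call was lost without V2a (0.75, adjusted p = 0.0867) or V3 (0.88, adjusted p = 0.0639). Areg, amphiregulin, was low, at 2.2 to 10.4 in WT and 0, 0 and 1.9 in the interneurons (2.07, adjusted p = 0.0121), and did not pass without V2a (adjusted p = 0.0548). Nrg4 read 3.6 to 20.9 in WT and 42.2, 22.0 and 22.1 in the interneurons (−1.35, adjusted p = 0.0521). It did not pass, with no overlap between the groups.

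The list of the ErbB partner Egfr, adaptors and effectors had 18 genes, all tested. In DKO 1 was higher and 1 lower, with a median of −0.10, where 3.22% of all genes were higher and 4.77% lower. Ptpn11, the phosphatase SHP2, rose from a mean of 360 to 492 (0.45, limma adjusted p = 0.0233), and Shc1, an adaptor, fell from 51.5 to 28.2 (−0.86, adjusted p = 0.0411). Neither passed without DKO replicate 1 (adjusted p = 0.171 and 0.354) or DKO replicate 2 (0.225 and 0.125). Egfr was near the limit in neurons (0.4 to 8.9) and read 7.0 in pMN and 38.4 in NP. Against interneurons, WT had 6 higher and 3 lower, with a median of 0.11, where 17.7% of all genes were higher and 15.2% lower. Shc3, the SHC adaptor of neurons, led them at 37.4 to 129.4 in WT against 7.1 to 9.7 (3.34, SE 0.36, adjusted p = 1.2e-04). In DKO it read 37.4 and 35.8, at and below the lowest WT library (replicate 1, at 37.4), with the other 5 WT libraries at 86.6 to 129.4 (−1.32, adjusted p = 0.0638).

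The 13 inhibitors and turnover factors of ErbB receptors were all tested. In DKO 0 were higher and 0 lower, with a median of 0.11, where 3.22% of all genes were higher and 4.77% lower. WT motoneurons against interneurons gave 1 higher and 6 lower, with a median of −0.14, where 17.7% of all genes were higher and 15.2% lower. Spry4, a feedback inhibitor of receptor kinase signalling, was the 1 higher gene, at 26.5 to 52.2 in WT against 3.3 to 4.2 in the interneurons (2.93, SE 0.28, limma adjusted p = 6.0e-05). Lrig1 and Lrig3, membrane proteins of the LRIG family, were lower. Lrig1 read 28.5 to 47.7 in WT against 65.9, 80.3 and 105.6 (−1.11, adjusted p = 0.00421). Lrig3 read 6.0 to 13.4 against 23.97, 33.5 and 97.1 (−2.06, adjusted p = 0.00465). The other 4 were Errfi1, Itch, Lrig2 and Ptpn12, by −0.29 to −0.75. Lrig1 and Lrig3 were higher still in pMN, at 437 and 285, and were lowest in V1 and highest in V3 among the interneurons, as were 6 of the 9 progenitor markers. The part of progenitors in these values was not tested.

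The genes whose pattern was most like each member were picked by Pearson correlation of log2(signal + 1) over 7 group means, among 15553 genes with a highest group mean of at least 10. The points share the libraries and their scaling, and the correlations are a description. Nrg1 was closest to Slc10a4 (0.996), a vesicle protein of cholinergic neurons, then Asic2 and Kbtbd3. Nrg3 was closest to Spag6 (0.999), Spry3 and Csmd3, and Agrn to Kif27 (0.985), Pde4a, Mzb1, Nebl and Exoc6b. Nrg2 was closest to Frat2, 2010111I01Rik and Carkd. Among the receptors, Erbb4 was closest to Pnoc (0.989), the precursor of nociceptin, then Cacna2d3 and Anks6. Among the genes closest to Erbb2 were Anln, a gene of cell division, and Anpep. Lrp4 was closest to 4930579G24Rik, Col18a1 and Usp44, and Erbb3 to Cgnl1, Ccdc88b and 2200002D01Rik. Over the 13 single libraries in place of the means, 2 of 3 genes stayed for Nrg1 and for Erbb4, 1 of 3 for Nrg2 and for Erbb3, and 0 for Agrn, Nrg3, Lrp4 and Erbb2.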

How the data were processed

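Messenger RNA of 13 libraries was used. Per the labels' protocols, poly-A RNA was made into unstranded libraries. Gene and transcript values were deposited by the authors as a signal on RefSeq models (per the file headers). DESeq, bedtools, mm9 and mm10 appear, with no role or version, in the submitters' processing notes, and an aligner is not given in the sources used here. In every library the upper quartile of the signal was 227.5 to 233.7 and totals differed, so values are neither counts nor scaled to a fixed total. The design named tests for counts and for normalized values, and the second was used: limma-trend (limma 3.58.1, R 4.3.3) on log2(signal + 1), which understates changes of low genes. Genes needed a mean of at least 1, and p-values were adjusted over all of them (threshold 0.05). The test was checked on simulated data. Of the gene entries, 22924 matched a GENCODE model by accession and 337 by symbol. From the low values, 75.8% to 77.6% lay within 0.1 of whole reads, against 20% by chance, which gave approximate reads.

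The members and lists were chosen with earlier results of these data known. All 8 members were named, together with list genes called with a log2 difference of at least 1 in size, and Musk, Dok7, Rapsn, Bace1, Adam17, Adam19, Egfr, Prss12 and Nrg4 whatever their values; other called genes were named after their values were seen. No sequence of Nrg2 is shown, and some named or marker genes are not reported here. Alternatives were pseudocounts, filters, scalings, priors, sets of libraries and libraries left out.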

Additional observations from a re-analysis of the deposited data

Results flagged for a closer look

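Within the groups large enough to look at, 1 of 13 series of values held a sample far from the others. WT replicate 2 read 18.3 for Nrg2, with the other 5 WT libraries between 35.96 and 46.1. Chance marks about 1 in 20 such series. That library rested on about 53 reads for Nrg2, and the other WT libraries on about 62 to 198. Without it, the Nrg2 difference between DKO and WT was 0.55 and did not pass (limma adjusted p = 0.0744).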

How the results depend on the processing

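In DKO against WT, 1299 genes were called (523 higher, 776 lower). An untrended prior called 844 (491 lower), WT replicates 2, 3 and 4 alone gave 2452 (1282 higher, 1170 lower), and replicates 1, 5 and 6 alone 2315 (985 and 1330). Leaving out 1 library gave 97 to 2032 (27 to 797 higher, 70 to 1235 lower), lowest without DKO replicate 1 (97) or 2 (141), and 2032 without WT replicate 2 and 827 without WT replicate 4. Scaling to equal total signal split the calls into 656 higher and 598 lower. In WT against interneurons, 5419 were called (2921 higher, 2498 lower). Equal totals gave 2014 higher and 3908 lower and moved the median of all genes from −0.04 to −0.22. WT replicates 1, 5 and 6 alone gave 3536 called (1553 lower), and leaving out 1 library 3684 to 5672 (2201 to 3000 higher, 1483 to 2702 lower), with 1483 lower without V2a. The cause of these shifts was not tested. Of the 8 genes, Nrg1 kept its call against interneurons in 20 of 20 alternatives, and Nrg3 kept its call in DKO in 16 of 19.

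Signs turned only for differences that did not pass. For Agrn in DKO, the difference was 0.070 with quantile normalization, 0.067 with equal totals and 0.30 against WT replicates 2, 3 and 4, and it ran from −0.14 to 0.069 with 1 library left out, above 0 without WT replicate 1, 5, 6 or DKO replicate 2. Lrp4 in DKO was −0.17 against WT replicates 1, 5 and 6. In WT against interneurons, Agrn was 0.30 with WT replicates 1, 5 and 6, and −0.18 to 0.19 with 1 library left out, above 0 without WT replicate 2, 4 or V3. Nrg2 was 0.082 with WT replicates 1, 5 and 6, and −0.49 (without V3) to 0.20 (without V1) with 1 library left out. Erbb4 ran from −1.62 (without V2a) to 0.71 (without V1). Erbb3 was −0.028 with a pseudocount of 10 and −0.014 with WT replicates 2, 3 and 4, and ran from −0.27 (without V2a) to 0.79 (without V3), with −0.15 without V1.

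The WT and DKO labels share the replicate numbers 1 and 2. Same-numbered libraries did not deviate together (correlations −0.06 and −0.01). With 2 DKO libraries both correlations rest on the same DKO difference, so they cannot show whether the numbers pair the libraries. With the replicate block, 214 genes were called (120 higher, 94 lower), Nrg3 was at 0.87 (adjusted p = 0.115) Adam19 at −0.80 (adjusted p = 0.0725) and Agrn at 0.14.

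Depth limits Erbb2, Erbb3 and Lrp4 in neurons, which rest on few reads in the shallower libraries. With 2 DKO libraries, changes smaller than the intervals given cannot be seen.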
